A study of Mus musculus with 4 samples.

Results

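The genes of the cytosolic ribosomal proteins were described across CD4 and CD8 T cells sorted from mouse spleen, on 4 expression arrays. A gene was taken as a member when its symbol in the array's annotation began with Rpl or Rps followed by a digit, p, a or x, leaving out kinases, names ending in l and pseudogenes, and when at least 1 probe set carried that symbol alone. This gave 44 members among 12393 named genes, each represented by its brightest probe set. Of these, 42 are subunits of the ribosome, 20 of the small and 22 of the large subunit, out of 79 subunits in the lists used. The other 2, Rpl22l1 and Rpl7l1, are paralogs named as like a subunit, which met the letters of the rule. Another 27 subunits had only probe sets that list several symbols and are not named here. Rplp1, Rpl5, Rpl10, Rps27a and Rack1 were not named with a probe set of their own. Fau, whose product carries the small-subunit protein S30, lies outside the rule and is given for comparison.

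The labels give 4 groups, all untreated C57BL/6 mice: CD4 cells from Gfi1 knockout mice, CD8 cells from Gfi1 knockout mice, and the same subsets from wildtype mice. The Gfi1 protein binds DNA through zinc fingers and represses genes in blood cells. Cells were stained for CD44, CD4 and CD8 and sorted by flow cytometry, and all samples are labelled as low in CD44, the surface state of naive cells. The titles end in the letter N on both arrays labelled knockout and M on both labelled wildtype. What the letters mark is not given, and it cannot be told apart from the labelled genotype in any difference below. Each group was 1 array of total RNA pooled from 2 mice, so no spread between animals was measured and no difference within a subset has a p-value. How the knockout allele was made is not given, nor are age and sex. In bulk RNA, fewer cells of a type and less RNA per cell cannot be told apart.

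Gfi1 itself read 2891 and 2447.4 on the arrays labelled knockout (CD4, then CD8) and 2272.2 and 1157.9 on those labelled wildtype. It was not lower on the arrays labelled knockout, and where its probe set lies relative to the deletion is not given. Cd4 was at 5469.8 and 5901.3 on the CD4 arrays and at most 18.9 on the CD8 arrays, while Cd8a was at 16639.2 and 15920.4 on the CD8 arrays and at most 89.6 on the CD4 arrays. The subset labels therefore matched their defining markers. Cd44 went against its label: it read 8135.7 in CD4 and 5740.3 in CD8 on the arrays labelled wildtype, against 196.2 and 252.4 on those labelled knockout. Each array is named below by its label.

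The cytosolic ribosome joins a small subunit, which decodes mRNA, and a large subunit, which forms peptide bonds, and nearly every subunit protein is needed in equal number. Ribosomal protein mRNAs are therefore made in step with each other. They begin with a pyrimidine run at the start of the transcript, the 5′ terminal oligopyrimidine tract, through which the mTOR kinase controls their translation. Naive T cells are small cells with little protein synthesis, and activation brings cell growth and new ribosomes.

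The start sites of some members are shown because most members had like differences between the arrays. Those shown include members whose differences stood apart from the rest, namely Rpl39, Rpl27a, Rps27 and Rplp0. Promoter sequence from RefSeq (GRCm38.p6) matched 39 members, with 45 start sites. Windows run from 30 bases before to 20 bases after the annotated start, read 5′ to 3′ on the gene's strand, and capitals mark a run of at least 8 pyrimidines (C or T) that reaches within 5 bases of the start. The first 5 members carry such a run and the last pair, the large-subunit genes Rplp0 and Rpl39, have none within that reach. The Rpl39 window does hold a run of 8 pyrimidines, cttcttct, just beyond it. The windows are chr4:86857348-86857397 (minus strand) for Rps6, chr2:39005112-39005161 (minus) for Rpl35, chr9:120571487-120571536 (plus) for Rpl14, chr3:90213629-90213678 (minus) for Rps27, chr7:109519165-109519214 (plus) for Rpl27a, chr5:115559437-115559486 (plus) for Rplp0 and chrX:37085203-37085252 (minus) for Rpl39.
Rps6: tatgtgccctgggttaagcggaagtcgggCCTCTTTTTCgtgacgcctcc
Rpl35: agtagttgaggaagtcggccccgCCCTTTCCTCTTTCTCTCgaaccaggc
Rpl14: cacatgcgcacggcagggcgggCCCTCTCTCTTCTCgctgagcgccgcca
Rps27: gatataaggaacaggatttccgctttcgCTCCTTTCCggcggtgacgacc
Rpl27a: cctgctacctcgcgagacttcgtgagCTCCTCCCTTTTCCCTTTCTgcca
Rplp0: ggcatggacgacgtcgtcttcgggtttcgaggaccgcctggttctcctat
Rpl39: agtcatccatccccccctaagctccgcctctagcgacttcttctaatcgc

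Such a run lay at 17 of the 45 member start sites (37.8%), against 10.2% of all 32851 promoters of the same table. The letters CCGGAA, on either strand within the 300 bases from 250 before to 50 after the start, were held by 26 of the 45 (57.8%) against 14.9% of all promoters. They are the core letters that ETS transcription factors bind, and their reverse, TTCCGG, can share bases with a pyrimidine run. Members with a run at the start had a median log2 difference, labelled knockout minus wildtype, of 0.24 in CD4 and -0.09 in CD8 (17 genes). Members without one had 0.27 and -0.06 (22 genes), so the pyrimidine run in this window did not separate members by their difference. A match describes letters only, and annotated starts can lie some bases from the true start of the transcript.

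The ribosomal protein genes were among the brightest signals on every array. All 44 lay above the floor of 93.9, the 40th percentile of the signals, on all 4 arrays. The median member lay between the percentiles 99.6 and 99.7 of each array's signals. Its signal intensity, in the deposited linear units, was 43549.7 on the knockout CD4 array, 39724.9 on the knockout CD8 array, 36918.8 on the wildtype CD4 array and 42586.4 on the wildtype CD8 array. The wildtype CD4 array was thus the lowest and the knockout CD4 array the highest. For 35 members the mean signal was at least 10000, which put many of them near the highest signal of any probe set, which lay between 54208.1 and 59117 over the arrays. The other 9 were Rpl12, Rpl14, Rpl27a, Rpl37, Rpl39, Rpl7l1, Rps25, Rps27 and Rps6. Probe sets differ in how strongly they bind, so levels are compared between arrays and not between genes. Whether the brightest signals are compressed was not tested.

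**Figure D1:**
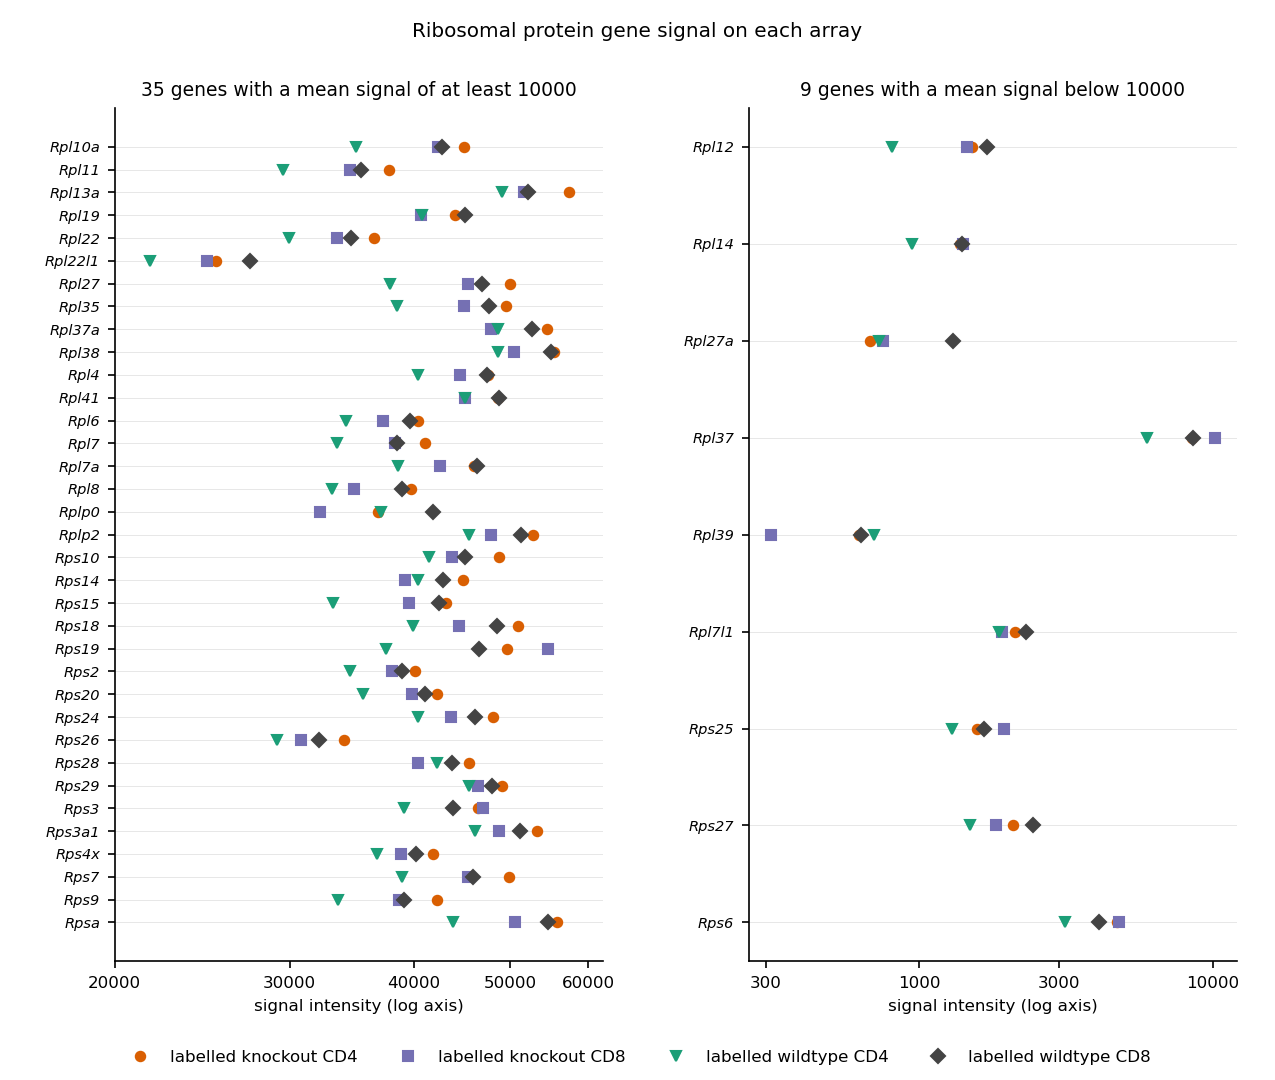
Signal intensity (log axes) of each of the 44 ribosomal protein genes on the 4 arrays, 35 genes with a mean signal of at least 10000 on the left and 9 below it on the right, 1 marker per array. The wildtype CD4 marker is the lowest of the 4 for 37 genes, and most bright genes span a narrow range.

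Within CD4 cells, 41 of the 44 members read higher on the array labelled knockout than on the one labelled wildtype, against 45.4% of the 8596 genes with at least 1 array over the floor, and 3 read lower (49.1%). The median log2 difference was 0.25 (quartiles 0.19 and 0.35), while the median of all genes was 0. The shift was small and shared: 19 members were at least 1.2-fold higher (22.6% of all genes) and none was 1.2-fold lower (28% of all genes). At 1.5-fold only Rpl12 and Rps6 were higher (7.29% of all genes) and no member was lower (14.6%).

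Within CD8 cells the members lay slightly the other way. On the array labelled knockout 38 of the 44 were lower, against 49.6% of all genes, and 6 were higher, against 44.4%. The median log2 difference was -0.08 (quartiles -0.13 and -0.03). None was 1.2-fold higher (15.1% of all genes) and 5 were 1.2-fold lower (21.9%), and at 1.5-fold the lower ones were Rpl39 and Rpl27a (9.21% of all genes), with none higher (4.14%).

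The subsets themselves were compared on the same arrays, so the next values are not independent of those above. With the wildtype label, 43 of 44 members were higher in CD8 than in CD4 (47.5% of all genes), with a median log2 difference of 0.22 (quartiles 0.15 and 0.31), and 17 were at least 1.2-fold higher (22.7%). At 1.5-fold 3 were higher (8.72%): Rpl12, Rpl27a and Rps27. With the knockout label, 37 of 44 were lower in CD8 than in CD4 (46.1%), with a median of -0.13 (quartiles -0.14 and -0.08). Rpl39 was the only member 1.5-fold lower (5.12%), and no member was 1.5-fold higher (6.39%). For 36 members CD8 lay above CD4 with the wildtype label and below it with the knockout label, a pattern of 18.9% of all genes. The wildtype CD4 array was the lowest of the 4 for 37 members (31.7% of the 6882 genes whose signal passed the floor on every array), and the knockout CD8 array for 6 (23.2%). The knockout CD4 array was the highest for 28 (26.6%) and the wildtype CD8 array for 9 (19.9%). The full order of knockout CD4, wildtype CD8, knockout CD8, wildtype CD4 held for 25 members and for 4.37% of those genes. Bright genes outside the members, 60 named genes with a mean signal of at least 20000, lay the same ways. With the wildtype label 43 of these 60 were higher in CD8 than in CD4 (median 0.06). With the knockout label 48 of the 60 were lower (median -0.12).

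Set against each other, the difference labelled knockout minus wildtype was smaller in CD8 than in CD4 for all 44 members (50.2% of all genes), by a median of -0.33 on the log2 scale. The same difference was below 0 for 57 of the 60 other bright genes, with a median of -0.19. The direction was thus not particular to the members. The signs were higher in CD4 and lower in CD8 for 35 members (17.6% of all genes), higher in both for 6 (26.2%) and lower in both for 3 (28.2%). At 1.2-fold no member was higher in both subsets (6.57% of all genes) or lower in both (11.3%), and Rps27 alone lay above wildtype in CD4 but below it in CD8 (2.49%). At 1.5-fold no member was higher in both (1.35% of all genes) or lower in both (4.71%).

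**Figure D2:**
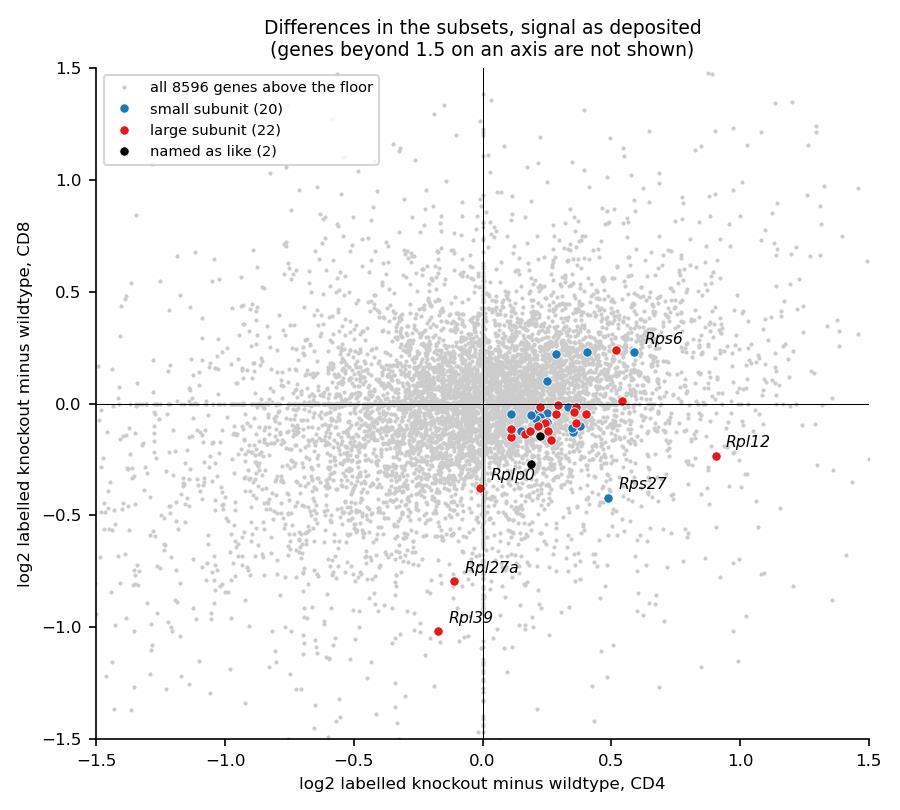
Log2 difference, labelled knockout minus wildtype, in CD4 (horizontal) and in CD8 (vertical) for each ribosomal protein gene by subunit, over all 8596 genes above the floor in grey. Most members gather at the right of 0 in CD4 and just below 0 in CD8, and Rpl39, Rpl27a and Rpl12 lie away from them.

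These small shared differences depended on how the arrays were scaled. With quantile normalization, which gives all arrays 1 distribution of signals, the medians were 0.02 in CD4 and -0.02 in CD8. In CD4 28 of 44 members were above 0, against 50.8% of all genes. In CD8 24 were below 0 and 19 above it, where 49.5% of all genes were above 0. Quantile normalization can remove a shift shared by the brightest signals, where most members lie, so it cannot show whether such a shift is real. With each array centred on its median, all 44 were higher in CD4 (median 0.56) and 38 were higher in CD8 (0.13), against 67.6% and 67.2% of all genes. The median of all genes then also moved, to 0.25 and 0.17, which left 0.31 and -0.04 relative to all genes. Arrays were also centred on the 60 other named genes of a mean signal of at least 20000, a choice made after seeing the data. The medians were then 0.10 in CD4 (36 above 0, against 31.7% of all genes) and -0.03 in CD8. On the deposited scale those 60 bright genes themselves had medians of 0.18 in CD4 (52 above 0) and 0.01 in CD8 (32 above 0). They include Fau and translation factors such as Eef1a1, Eef1b2 and Eef2. Centring on them can thus take away part of a shift that they share with the members. Under all 4 scalings 28 of the 44 members kept a difference above 0 in CD4, while in CD8 6 stayed above 0 and 6 below. No such count was made over all genes. The CD8 difference lay below the CD4 one under each scaling at the median, by -0.33 as deposited, -0.03 under quantile normalization, -0.43 with array medians and -0.12 with the other bright genes. Under quantile normalization 27 of 44 members were below 0 and 17 above it, where 47.8% of all genes were above 0.

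**Figure D3:**
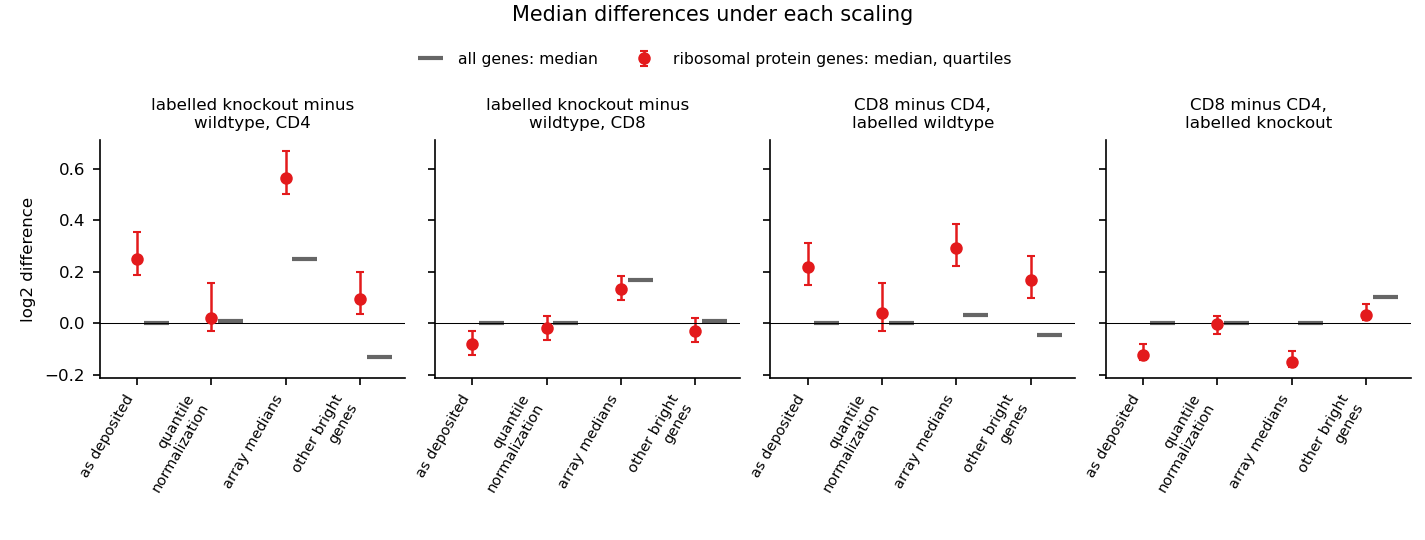
Median log2 difference of the 44 ribosomal protein genes, with bars from the lower to the upper quartile, for each comparison (panels) and each scaling of the arrays (horizontal axis); grey marks are the median of all genes. The CD4 median runs from 0.02 under quantile normalization to 0.56 with arrays centred on their medians, and the CD8 median changes sign.

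The 20 small-subunit members were all higher in CD4 (median log2 difference 0.25), against 45.4% of all genes. In CD8 16 of 20 were lower (median -0.05), against 49.6% of all genes. Rps6, the protein that S6 kinases phosphorylate downstream of mTOR, read 4722.8 on the knockout CD4 array, 4795.2 on the knockout CD8, 3138.4 on the wildtype CD4 and 4090.7 on the wildtype CD8. Both arrays labelled knockout lay above both labelled wildtype. The log2 difference was 0.59 in CD4 and 0.23 in CD8, above 0 under all 4 scalings, and a second probe set of the gene lay under the floor on all arrays.

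Rps19, mutated in Diamond-Blackfan anaemia and needed to mature the small subunit, read 49671.4 and 54683.3 on the arrays labelled knockout (CD4, then CD8) and 37485.9 and 46571.4 on those labelled wildtype. The groups did not overlap, with log2 differences of 0.41 and 0.23, both above 0 under every scaling. Rps25, a protein of the small subunit's head that some viral RNAs use to start translation, read 1576.6 and 1947.1 against 1295.3 and 1667.9. Here the groups overlapped, since the knockout CD4 array lay under the wildtype CD8 array, although the difference within each subset (0.28 and 0.22) was above 0 under all scalings. Rps25 was also higher in CD8 than in CD4 with both labels, by log2 values of 0.36 (wildtype) and 0.30 (knockout). Ranked by the smaller of the values it came first of the 7 such members. How many of all genes were higher in CD8 with both labels was not counted.

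Rps3, which lies at the mRNA entry channel, read 46460.8 and 46973.6 on the arrays labelled knockout and 39095.6 and 43828.4 on those labelled wildtype. The groups did not overlap, and the log2 differences were 0.25 in CD4 and 0.10 in CD8. In CD4 the difference shrank to 0.02 under quantile normalization. Rps27, a zinc finger protein of the small subunit, went opposite ways in the subsets: 2093.9 against 1492.2 in CD4 and 1820.7 against 2436.5 in CD8, log2 differences of 0.49 and -0.42. Both signs were kept under all 4 scalings.

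Rpsa and Rps4x stayed close to the rest of the small subunit. Rpsa, a protein that also serves as a laminin receptor, read 55753.1 and 50612.7 on the arrays labelled knockout (CD4, then CD8) and 43853.8 and 54681 on those labelled wildtype, log2 differences of 0.35 and -0.11. Rps4x, the copy encoded on the X chromosome, read 41861.2 and 38812.7 against 36735.1 and 40184.8, differences of 0.19 and -0.05. For both, the wildtype CD4 array was the lowest and the groups overlapped. Fau, outside the rule, read 44334.5 and 40002.7 against 35781.6 and 43178.8, with differences of 0.31 and -0.11.

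The 22 large-subunit members had medians of 0.25 in CD4, with 19 above 0 (45.4% of all genes), and -0.09 in CD8, with 20 below 0 (49.6%). Rpl37, a small zinc-binding protein, read 8522 and 10132.1 on the arrays labelled knockout and 5943.6 and 8578.6 on those labelled wildtype. The knockout CD4 array lay just under the wildtype CD8 array, so the groups overlapped, and within the subsets the log2 differences were 0.52 and 0.24. Both stayed above 0 under all scalings. Rpl14, of the large subunit, read 1380.5 and 1412.6 against 948.5 and 1402.3, so that only the wildtype CD4 array stood apart, with differences of 0.54 and 0.01.

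Rpl12, at the base of the stalk that binds elongation factors, had the widest gap between the subsets. It read 1513 and 1452 on the arrays labelled knockout and 807.7 and 1705.8 on those labelled wildtype, log2 differences of 0.91 in CD4 and -0.23 in CD8. The wildtype CD4 array was the low one and the other 3 were close together. The stalk itself is built on Rplp0 with Rplp1 and Rplp2. Rplp0 read 36868.1 and 32168.9 against 37102.4 and 41803.5, with differences of -0.01 and -0.38, so that it was among the 3 members not higher in CD4. Its CD8 difference was below 0 under all 4 scalings. Rplp2 read 52746.3 and 47857.7 against 45480.7 and 51318.4, differences of 0.21 and -0.10, close to the median member.

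Rpl39, a very short protein at the exit tunnel for the new peptide chain, was the lowest member in CD8 relative to wildtype. It read 621.9 in CD4 and 313.4 in CD8 on the arrays labelled knockout, and 701.7 and 634.4 on those labelled wildtype. The knockout CD8 array stood apart below the other 3, and the groups did not overlap, with log2 differences of -0.17 and -1.02. Rpl27a, a core protein of the large subunit, read 678.5 and 753.3 against 732.9 and 1305.5, differences of -0.11 and -0.79, and here the wildtype CD8 array stood apart above the others. In CD8 both genes were lower under all scalings, while their CD4 differences were above 0 with arrays centred on their medians. A second probe set of Rpl27a lay under the floor on all arrays, so its values rest on 1 probe set.

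Some members are known for roles beyond the shared work of the ribosome. Rpl11, which binds Mdm2 when ribosome assembly fails, read 37738.3 and 34504 on the arrays labelled knockout and 29540.2 and 35409.3 on those labelled wildtype, differences of 0.35 and -0.04. Rpl22, which T cells need for early development in the thymus, read 36505 and 33524.7 against 29973.1 and 34622.3, and its paralog Rpl22l1 read 25302.7 and 24766.1 against 21684.8 and 27376.4. The CD4 difference was 0.28 for Rpl22 and 0.22 for Rpl22l1, and the CD8 difference was -0.05 and -0.14. A second, dimmer probe set of Rpl22 (mean signal 2172.7) gave 0.38 in CD4 and 0.22 in CD8. On this scale the paralogs thus lay the same way in CD4, while the direction of Rpl22 in CD8 was not settled.

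The other paralog, Rpl7l1, read 2123.1 and 1919.7 on the arrays labelled knockout and 1864.6 and 2317.9 on those labelled wildtype, differences of 0.19 and -0.27. Its second probe set gave -0.22 in CD4, so the direction in CD4 was not settled. Rpl38, which favours the translation of Hox mRNAs in the embryo, read 55369.3 and 50469.3 against 48695.7 and 54998.5, differences of 0.19 and -0.12. Rpl13a, which leaves the ribosome in interferon-treated myeloid cells to silence mRNAs, read 57333.4 and 51696.6 against 49080.7 and 52193.5, differences of 0.22 and -0.01. Its dimmer probe sets gave -0.14, 0.09 and 0.27 in CD8, so its direction there was not settled. The remaining members had CD4 differences from 0.11 to 0.40 and CD8 differences from -0.16 to -0.01.

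The 9 dimmer members spread more widely than the 35 brighter ones. The median difference was 0.49 in CD4 and -0.23 in CD8 for the dimmer, against 0.24 and -0.08 for the brighter, and with the wildtype label CD8 lay over CD4 by 0.53 against 0.20. This split was chosen after seeing the data.

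Probe sets of 1 gene can differ in brightness and in the transcripts they match. Their spread shows how far they disagree on the same arrays, and it holds no error between arrays, such as that of scaling. Of the 44 genes, 18 had at least 2 probe sets that passed the floor on every array, 57 in all. The SD of the log2 difference among probe sets of a gene had a median of 0.11 in CD4 (range 0.011 to 0.404) and 0.098 in CD8. In CD4 all probe sets lay above 0 for 16 of the 18 genes, the exceptions being Rps24, whose lowest probe set was at -0.17, and Rpl7l1. In CD8 all lay below 0 for 7 of 18. Many of these probe sets match several transcripts: 31 of the 44 chosen probe sets are of the types that can, and reads of near-identical copies and processed pseudogenes cannot be told apart on them. With only probe sets for a single transcript, 21 genes remained, with medians of 0.28 in CD4 and -0.05 in CD8.

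Rpl41, the shortest ribosomal protein, had the widest spread of CD4 differences among the probe sets of a gene (SD 0.404). Its brightest probe set (mean signal 46898.7) differed by 0.11 in CD4 and -0.11 in CD8. The dimmer ones differed in CD4 by 0.27, 1.00 and 0.68, the last at a mean signal of 1610.12, and the latter 2 differed in CD8 by 0.77 and 0.42. Over the 18 genes the dimmest probe set had the higher difference in 11 genes in CD4 and in 15 in CD8.

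**Figure D4:**
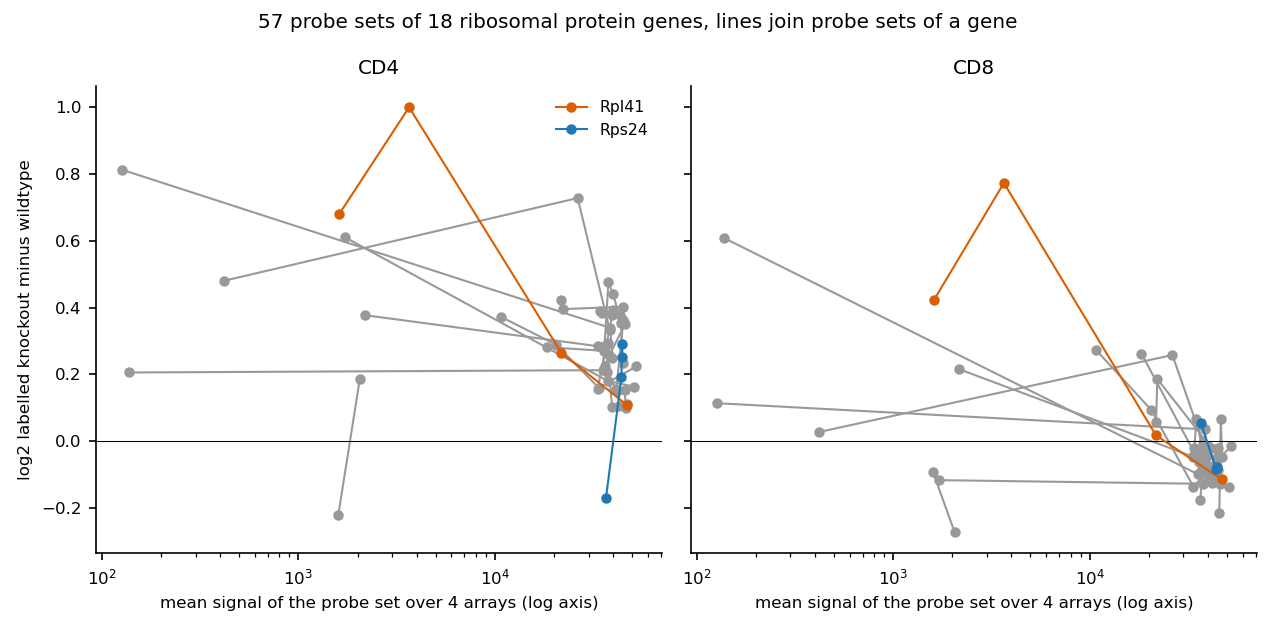
Log2 difference, labelled knockout minus wildtype, against mean signal (log axis) for 57 probe sets of 18 ribosomal protein genes, CD4 on the left and CD8 on the right; lines join probe sets of a gene. The probe sets of Rpl41 range from 0.11 to 1.00 in CD4, while the brightest probe sets of all genes sit closer together.

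A model over all 4 arrays, limma with subset and labelled genotype as terms, called no member at an adjusted p of 0.05 (47 of 8596 genes, 0.547%, were called; 7 higher and 40 lower). Its error is the disagreement between the subsets together with a prior spread of genes with like signal, not a spread between animals. At an unadjusted p of 0.05 it picked 2 members, against 13.1% of all genes. They were Rps6, with a mean log2 difference of 0.41 ± 0.14 (SE; limma adjusted p = 0.287), and Rpl37, with 0.38 ± 0.14 (limma adjusted p = 0.311). Rpl39 had the lowest mean, -0.60 (limma adjusted p = 0.496). No alternative called a member, and the lowest adjusted p of a member ran from 0.227 to 0.606.

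Other genes that make or serve the ribosome were set beside the members. Translation factors bring mRNA, tRNA and energy to the ribosome. Of 38 listed, 33 were above the floor, with medians of 0.21 in CD4 (30 above 0, against 45.4% of all genes) and 0.03 in CD8 (22 above 0, against 44.4%). At 1.5-fold, 2 were higher in CD4 (7.29% of all genes) and none lower (14.6%), and in CD8 none was higher (4.14%) and 1 lower (9.21%). Eif5b, which joins the subunits at the start codon, differed by 0.62 and 0.52. Eef1d, an exchange factor for elongation factor 1A, differed by 0.59 and 0.28. Eif4ebp1 and Eif4ebp2, repressors of cap-dependent initiation that mTOR inactivates, were lower in both subsets, by log2 differences of -0.41 and -0.93 and of -0.38 and -0.28.

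Ribosome assembly genes, which process ribosomal RNA and load proteins in the nucleolus, had 42 of 46 above the floor. Their medians were 0.26 in CD4 (35 above 0, against 45.4% of all genes) and 0.01 in CD8 (22 above 0, against 44.4%). At 1.5-fold, 6 were higher in CD4 (7.29% of all genes) and none was lower (14.6%). Nop10, of the pseudouridylation complex, differed by 0.43 and 0.18, Nip7 by 0.49 and 0.17, and Brix1 by 0.34 and 0.27. Rrp12 differed by 0.24 and 0.22. With the wildtype label the assembly genes were higher in CD8 than in CD4 by a median of 0.39. The ribosomal proteins lay the same way there, at 0.22. With the knockout label the assembly genes stayed higher in CD8, by a median of 0.18 and above 0 under all 4 scalings, where the ribosomal proteins were at -0.13. The CD4 median was above 0 under all 4 scalings for the translation factors (0.05 to 0.52) and for the assembly genes (0.11 to 0.58).

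RNA polymerase I, which transcribes ribosomal RNA, had 10 of 13 genes above the floor, with medians of 0.19 and -0.00188. Taf1d, of its promoter factor, differed by 0.65 and 0.48, and Rrn3, its initiation factor, by 0.35 and 0.24. Polr1d and Polr1c, subunits shared with RNA polymerase III, differed by 0.14 and 0.13 and by 0.23 and 0.05. For cytosolic and mitochondrial tRNA synthetases, with 19 of 21 above the floor, the CD4 median was 0.00324 and the CD8 median 0.00411, and their direction turned with the scaling, from -0.15 to 0.32 in CD4. Among them Fars2 differed by -0.44 and -0.25, Cars by 0.33 and 0.15, Nars by 0.17 and 0.14 and Rars by -0.12 and -0.15.

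Regulators of ribosome production around mTOR, S6 kinase and Myc had 10 of 19 genes above the floor, with medians of -0.17 in CD4 and -0.24 in CD8. In CD4 that median turned to 0.00880 under quantile normalization and to 0.14 when each array was centred on its median. Mxd4, an antagonist of Myc, was the only one of the 5 lists' genes at least 1.5-fold apart in both subsets. It read 1227.4 and 1081.6 on the arrays labelled knockout and 3101.6 and 1897.8 on those labelled wildtype, log2 differences of -1.34 and -0.81, and the groups did not overlap. Mtor differed by -0.28 and -0.20, Tsc2, its inhibitor, by -0.26 and -0.29, and Rps6ka3, a kinase of Rps6, by 0.46 and 0.26.

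**Figure D5:**
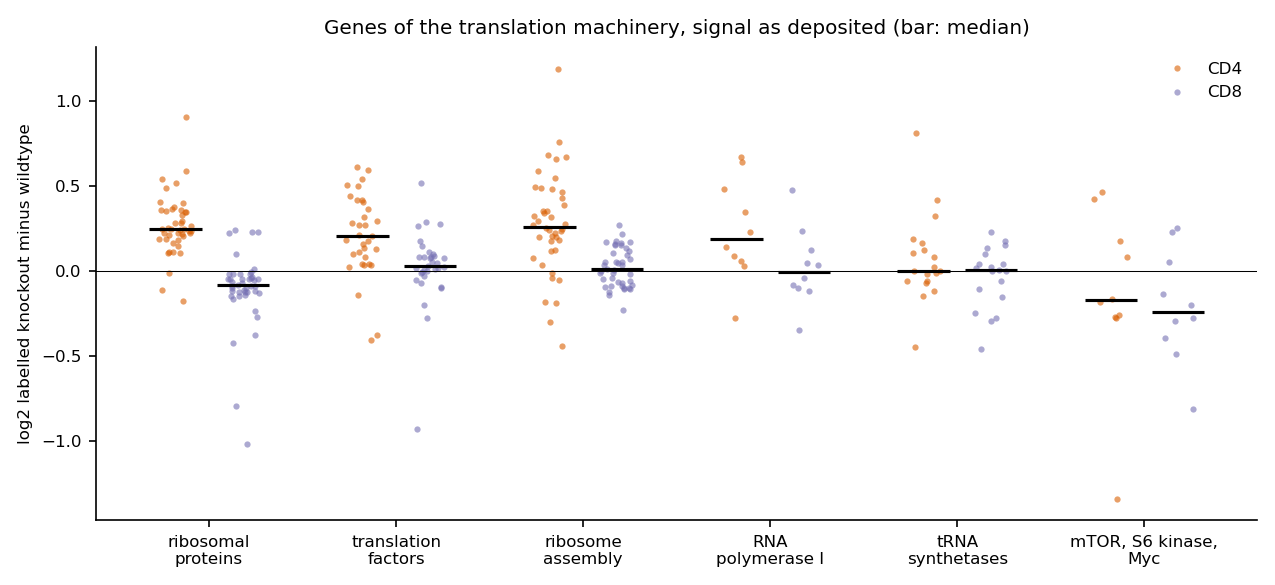
Log2 difference, labelled knockout minus wildtype, in CD4 and CD8 for the ribosomal protein genes and for 5 lists of other genes of translation and ribosome production, 1 point per gene and a line at each median. In CD4 the medians of the ribosomal proteins (0.25), translation factors (0.21) and ribosome assembly genes (0.26) lie close together, and in CD8 they are -0.08, 0.03 and 0.01.

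Other features of the samples moved with the arrays, and their part in the ribosomal protein differences was not tested. Of 12 memory T cell markers all were lower in CD4 on the array labelled knockout (median log2 difference -4.80), against 49.1% of all genes. All were also lower in CD8 (-2.77), against 49.6%. Their summed signal was 2461.1 and 16624.3 on the arrays labelled knockout (CD4, then CD8), against 80664.5 and 76028.8 on those labelled wildtype. The 8 naive T cell markers above the floor were all higher in CD4 (median 1.36), against 45.4% of all genes. In CD8 7 of 8 were higher (0.30), against 44.4%. The 15 cell cycle genes had median log2 differences of -2.92 in CD4 and -1.35 in CD8. They summed to 26354 and 29690.1 against 59805.2 and 41405.2. Pcna, at 17360.5 and 17435.9 against 21620.4 and 18885.5, was a large part of these sums. A list of dendritic cell and MHC class II genes summed to 48943.7 on the wildtype CD8 array and to 1728.5, 4137.3 and 4512.2 on the knockout CD8, wildtype CD4 and knockout CD4 arrays. On the wildtype CD8 array most of that sum came from the MHC class II genes Cd74 (16735.4), H2-Aa (12284.1), H2-Eb1 (10415.5) and H2-Ab1 (7184.8). The dendritic cell markers Itgax, Flt3, Xcr1, Batf3 and Zbtb46 read from 243.4 to 1002.5 there. Of 10 B cell genes 4 passed the floor on at least 1 array. Among them Cd22 read 154 and 76.3 on the arrays labelled knockout (CD4, then CD8) against 1124 and 614.6 on those labelled wildtype, and Ighm read 16664.3 and 12666.3 against 13985.3 and 10870.9. Cd79b read 57.1 and 737.5 against 305.1 and 759.1, so it was close to equal in CD8. Blk read 65.4 and 77.1 against 93.5 and 199.9. The 18S ribosomal RNA control probe set at the 5′ end read 3561.7 and 525.2 on the arrays labelled knockout and 7146.6 and 7227.9 on those labelled wildtype. The 18S set at the 3′ end read 933.3 and 582.3 against 1096.2 and 1481.7, and the middle set 1178.2 and 395.6 against 1432.1 and 1556.7. Each set was lowest on the knockout CD8 array, and in CD4 the 3′ and middle sets differed less than the 5′ set. The ratio of 3′ to 5′ signal ran from 0.80 to 0.88 for Gapdh and from 1.13 to 1.21 for Actb.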

How the data were processed

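RNA was extracted with TRIzol, biotin-labelled and hybridised to Affymetrix MOE430A_2.0 arrays, per the labels' protocols. The authors deposited linear signal intensity values per probe set, and GCOS 1.4 and MAS5 are named in the submitters' processing notes. From the values, each array has a 2% trimmed mean of about 1000.41; any other scaling step is not stated. Of 22690 probe sets, 64 controls were left out, 20380 carried 1 symbol, 691 several and 1555 none. Of those with 1 symbol 20351 matched RefSeq (GRCm38.p6). Columns not used numbered 0.

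Signals under the 40th percentile (93.9) were set to it before log2. Each gene took its probe set of highest mean log2 value, 12393 genes. Log2 differences were computed from these intensities, as labelled knockout minus wildtype and as CD8 minus CD4. All calls are counts and medians beside all genes, because each group is 1 array. Limma 3.58.1 (R 4.3.3) used lmFit and eBayes with trend, with Benjamini-Hochberg adjustment over 8596 genes and 1 residual degree of freedom; it was tested on simulated data. Tables were made with pandas 2.3.3 and numpy 2.4.6 and figures with matplotlib 3.10.9, in Python 3.11.15.

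The members and gene lists were chosen with earlier results of these data known. Named genes were the 6 members each way with the largest smaller difference of 1 sign in both subsets, the 4 each way for CD8 against CD4 with both labels, the 3 each way with the largest difference between the subsets' effects, up to 4 genes of each list, and a set always named for its role (such as Rps6, Rps19, Rplp0, Rpl22 and Rpl38). Rps24, Rpl41 and Rpl35 were named after their values or sequences were seen. Alternatives were quantile normalization, centring on medians or other bright genes, other probe set choices, a pseudocount of 16, limma without trend, and other filters.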

Additional observations from a re-analysis of the deposited data

Results flagged for a closer look

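The difference between the labelled genotypes had opposite signs in the subsets at the median of the members, 0.25 in CD4 and -0.083 in CD8, and the difference of CD8 from CD4 had opposite signs with the labels, 0.22 with the wildtype label and -0.13 with the knockout label. These are the same 4 arrays seen from either side. Rps27 went opposite ways by more than the 1.2-fold mark, 0.49 in CD4 and -0.42 in CD8. With 1 array per group the difference between the groups was not tested.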

How the results depend on the processing

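No paired analysis was possible because no group has numbered replicates to pair, each being 1 array; the subset term of the limma model sets the labelled genotypes against each other within each subset. With no replicates, a median was counted as unchanged when it moved by less than 0.1 on the log2 scale with the same sign. Under quantile normalization the median differences were 0.0217 (CD4), 0.0391 (CD8 minus CD4, wildtype label) and -0.00229 (CD8 minus CD4, knockout label). With arrays centred on their medians they were 0.56 in CD4 and 0.13 in CD8, a change of sign. With arrays centred on other bright genes they were 0.10 in CD4 and, with a change of sign, 0.0303 for CD8 minus CD4 with the knockout label. Without probe sets that match several transcripts, CD8 minus CD4 with the wildtype label was 0.32 and 1 member was at least 1.5-fold lower in both subsets, a dim probe set of Rps24 at the floor on the knockout CD4 array. The 9 dimmer members alone gave 0.49 (CD4), -0.23 (CD8), 0.53 and, with a change of sign, 0.0219 (CD8 minus CD4, wildtype and knockout labels). The cause of these changes was not tested. The median differences in the 4 comparisons kept their sign and moved by less than 0.1 with the pseudocount, with the mean or second brightest probe set, without the genes named as like, and with the genes from probe sets of several symbols. All 44 members passed the floor on every array, but not all lay far above it. Rpl39 read 313.4 on the knockout CD8 array, where the median member read 39724.9. At their lowest, Rpl27a read 678.5 (knockout CD4) and Rpl12 read 807.7 (wildtype CD4). Whether weak signal adds to the differences of these dim members was not tested. For all members, 1 array per group limits precision. Genes called by limma over all genes ranged from 0 to 327 between alternatives.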
